A study of Mus musculus with 18 samples.

Results

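C/D box small nucleolar RNAs (snoRNAs) are short noncoding RNAs of the nucleolus, and in the mouse their genes carry symbols that start with Snord. The deposited count table was searched for every symbol made of Snord and a number, which gave 74 of its 24062 symbols. Of the 74, 61 had at least 1 read in at least 1 library and 13 had none in any. A filter on low counts, taken over the whole table, left 44 for testing. The other 17 with reads had 4 to 97 reads in total over all libraries. The filter looks mainly for enough reads in a few libraries. Snord42a and Snord88a, with 92 reads each, were thus tested, while Snord71, also with 92, was not. A stricter requirement of a mean of at least 10 reads over all libraries was met by 33. It uses no group labels, although the reads of every group enter it.

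The RNA came from mouse bone marrow progenitors without lineage markers that had been immortalized with a retrovirus carrying MLL-AF9, a leukemia fusion gene. All lines express a Cre recombinase from the Rosa locus that 4-hydroxytamoxifen (4OHT) switches on. The lines differ in Ddx41, which encodes a DEAD-box RNA helicase: WT cells are labelled +/+, Het cells carry a floxed allele beside a normal one, and FF cells carry floxed alleles only. Each line was kept for 48 h in 1 µM 4OHT or in its solvent, ethanol (EtOH). That makes 6 groups of 3 libraries (A, B and C), 18 in all. All cells grew with interleukins and stem cell factor, and the series' text places the death of cells without Ddx41 after this time. Neither the number of lines per genotype nor the origin of the lettered libraries, from separate cultures or not, is in the labels. All p-values below thus reflect library-to-library spread alone, possibly technical. A genotype and the line that carries it cannot be told apart.

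A C/D box snoRNA is held by fibrillarin, Nop56, Nop58 and the small protein encoded by Nhp2l1, and it base-pairs with ribosomal or spliceosomal RNA so that fibrillarin adds a 2'-O-methyl group at the paired position. A C box near the start and a D box near the end anchor the proteins. A few members, such as Snord22, Snord118 and the Snord14 family, take part in cutting the ribosomal precursor. Most lie in introns of a host gene and are released when the host's intron is removed and trimmed, so that host and snoRNA come from a shared transcript, although they differ in stability. Many hosts encode ribosomal proteins, and others, such as Snhg1 and Gas5, encode spliced RNAs with no known protein that are rapidly degraded.

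The sequences below are those of the members on which the results turn, from GENCODE M21 transcripts (GRCm38), written 5' to 3' with the C box letters TGATG and the D box letters CTGA in capitals where found. Snord88c lies at chr7:44249852-44249941 and Snord88a at chr7:44250135-44250224, both on the plus strand within 2410002F23Rik. Both are 90 bases long and identical at 85 positions (94.4%), so reads may not separate them cleanly.
Snord88c: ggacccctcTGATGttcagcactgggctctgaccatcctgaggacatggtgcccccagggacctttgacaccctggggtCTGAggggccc
Snord88a: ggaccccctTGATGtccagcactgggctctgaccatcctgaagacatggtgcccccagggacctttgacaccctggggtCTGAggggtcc
The ribosomal protein gene Rpl23a holds Snord42a at chr11:78181299-78181363, Snord4a at chr11:78181686-78181756 and Snord42b at chr11:78183056-78183124, all on the minus strand. They are shown because members of this single host differed in the size of their change. Snord42a and Snord42b match at 47 positions, or 68.1% of the longer sequence.
Snord42a: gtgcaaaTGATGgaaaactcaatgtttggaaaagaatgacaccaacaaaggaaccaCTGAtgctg
Snord4a: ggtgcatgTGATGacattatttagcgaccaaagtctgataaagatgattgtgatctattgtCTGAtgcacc
Snord42b: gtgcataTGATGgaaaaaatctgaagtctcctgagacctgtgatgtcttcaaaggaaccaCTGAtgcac
The remaining sequences belong to members with the smallest p-values or the most reads. Snord32a lies in Rpl13a at chr7:45127382-45127464 (minus strand). Snord22 lies in Snhg1 at chr19:8725866-8725991 (plus strand) and Snord12 in Zfas1, listed in the table as 1500012F01Rik, at chr2:167065276-167065365 (plus strand). Snord104 lies at chr11:106500993-106501062 (plus strand), where the annotation gives no host.
Snord32a: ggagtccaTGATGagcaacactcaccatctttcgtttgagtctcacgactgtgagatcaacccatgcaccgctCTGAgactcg
Snord22: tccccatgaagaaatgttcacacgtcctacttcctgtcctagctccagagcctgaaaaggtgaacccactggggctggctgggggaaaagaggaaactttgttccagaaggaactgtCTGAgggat
Snord12: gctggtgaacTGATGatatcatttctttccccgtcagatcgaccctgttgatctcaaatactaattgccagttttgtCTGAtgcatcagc
Snord104: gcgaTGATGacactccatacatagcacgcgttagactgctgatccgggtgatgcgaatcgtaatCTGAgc

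The boxes were searched as exact letters on the transcribed strand, TGATG within the first 20 bases and CTGA within the last 15. Of 71 members whose sequence was used, 61 (85.9%) held the C box letters, 65 (91.5%) the D box letters and 57 (80.3%) both. Among 42 annotated transcripts of the other large snoRNA family, the H/ACA box snoRNAs (Snora), the shares were 0%, 7.14% and 0%, and over all 1558 annotated transcripts of small nucleolar and Cajal body RNAs they were 24.6%, 30.9% and 22.6%. Snord22 is among those with the D box letters only. Of the 74 members, 73 matched 1 annotated gene, with lengths of 64 to 238 bases (median 80), and 71 lay within the span of a host on the same strand.

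Ddx41 itself ranged from 73.7 to 112 CPM (reads scaled to a common library total) in FF ethanol libraries and from 14.6 to 17.7 CPM in FF 4OHT libraries. In Het cells it ranged from 68.0 to 79.1 CPM in ethanol and from 41.3 to 58.4 CPM in 4OHT. Library totals ran from 24730213 to 49277884 reads, so that 1 read is worth 0.0194 to 0.0416 CPM. Snord reads made up 897 to 2924 reads of a library, and only 11 members averaged over 1 CPM, so most values below rest on few reads. The library labelled FF_EtOH C correlated with the WT ethanol libraries at 0.993 to 0.996 and with FF_EtOH A and B at 0.975 and 0.982 (Pearson's r of log2(CPM + 1) across 12322 genes, which are not independent). The library labelled WT_4OHT C correlated with FF_EtOH A and B at 0.985 and 0.989, above its 0.969 and 0.977 with WT_4OHT A and B. Results that rest on these 2 libraries are therefore also given without them, here called the pair of doubtful libraries. In Het_4OHT A only 39 members had a read, against 49 to 61 in each of the other 17 libraries. Summed progenitor markers stood at 1274 to 1560 CPM in the FF libraries, while the erythroid and lymphoid lists summed to less than 0.7 CPM in each, with all 6 erythroid genes below the count filter.

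The summed level of the 74 Snord genes was higher in FF cells with 4OHT than in all other libraries. It was 91.5, 94.98 and 88.9 CPM in the FF 4OHT libraries (mean 91.8 ± 3.03, SD, n = 3) and 36.6, 48.0 and 37.3 CPM in the FF ethanol libraries (40.6 ± 6.43). The Het means were 37.6 ± 4.85 CPM in ethanol and 41.3 ± 3.41 CPM in 4OHT, and the WT means 42.5 ± 7.09 and 40.5 ± 10.3 CPM (SD, n = 3 each). The 15 libraries outside FF 4OHT thus ran from 28.7 to 48.0 CPM, and the lowest FF 4OHT library stood well above them. Snord96a, Snord104 and Snord22, the members with the most reads, made up 36.7% of the summed level over all libraries. Without them the FF 4OHT libraries summed to 59.5 to 66.0 CPM and the FF ethanol libraries to 22.5 to 32.3 CPM. CPM is a share of all counted reads, and in bulk RNA more cells with a transcript and more transcript per cell cannot be told apart. Reads from the mature snoRNA, from its precursor and from an unspliced host intron cannot be told apart either in counts per gene.

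**Figure D1:**
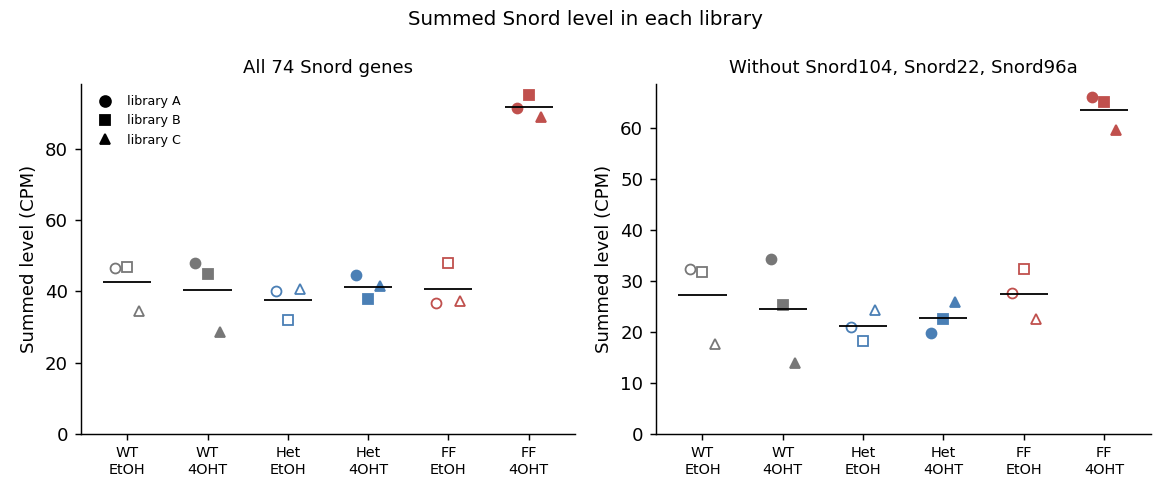
Summed CPM of all 74 Snord genes (left) and of the 71 without Snord104, Snord22 and Snord96a (right), for each of the 18 libraries (points, shaped by letter) with group means as lines. The 3 FF 4OHT libraries lie between 88.9 and 94.98 CPM on the left and above every other library on both sides.

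Ribosomal precursor RNA was high in some FF 4OHT libraries, and its part in the result was not tested. Rn45s, the ribosomal precursor transcript, stood at 5986, 18282 and 41152 CPM in FF 4OHT libraries A, B and C and at 3827 to 6463 CPM in FF ethanol. Library A thus lay inside the ethanol range. Of the 3 tested nuclear and precursor RNAs, Rn45s among them, edgeR and limma voom called 0 and DESeq2 called 1. The summed Snord level in those FF 4OHT libraries stayed within 88.9 to 94.98 CPM. Het_4OHT A had 14893 CPM of Rn45s and a Snord sum of 44.6 CPM, inside the range of the other libraries. The monocyte and macrophage marker list rose. Its sum was 381 to 457 CPM in FF ethanol and 1471 to 1991 CPM in FF 4OHT. Of its 7 tested markers, 6 passed the threshold upward. Of the neutrophil markers 1 of 6 rose, and of the 6 progenitor markers Myb fell by 0.33 on the log2 scale (edgeR adjusted p = 0.0454). Whether the Snord difference follows the marker difference was not tested.

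In FF cells 15 of 44 tested Snord genes rose with 4OHT and 0 fell, with edgeR's quasi-likelihood test and Benjamini-Hochberg adjustment over 12859 genes at 0.05. Genes past this threshold are referred to as called. Over all tested genes, 5.16% rose and 8.29% fell. The count filter favours a rise here, because 7 of the 44 (Snord33, Snord1c, Snord35b, Snord88c, Snord37, Snord42a and Snord88a) would not have passed it without the FF 4OHT libraries, and 6 of these 7 are among the 15. With the filter on the mean over all libraries, which uses no group labels, 10 of 33 rose and 0 fell. Among all genes so filtered, 5.7% rose. That mean includes the FF 4OHT libraries, so it too can favour a rise. Snord88c, with 96 of its 197 reads in those libraries, is among the 10. Those 33 had a median log2 fold change of 1.24, against -0.01 for all genes, and 31 were above 0. Over the 44, the values ran from -0.52 to 4.21 with a median of 1.42, against -0.02 over all genes. All 3 FF 4OHT libraries lay above all 3 ethanol libraries in 27 of the 44, a pattern found in 18.7% of all tested genes. The pattern was found in 19 of the 33 members that met the filter on the mean. Without the pair of doubtful libraries, 12 members rose, all among the 15, against 4.43% of all genes. Leaving out any single FF library left between 6 (without FF_4OHT C) and 10 (without FF_EtOH C) calls, and all 15 stayed above 0 in every fit. Calls over all genes, in either direction, fell too, from 1729 to 698 without FF_4OHT C and to 1293 without FF_EtOH C. Among the H/ACA box snoRNAs, 12 of 27 tested Snora genes rose and 0 fell, with a median log2 fold change of 1.38.

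**Figure D2:**
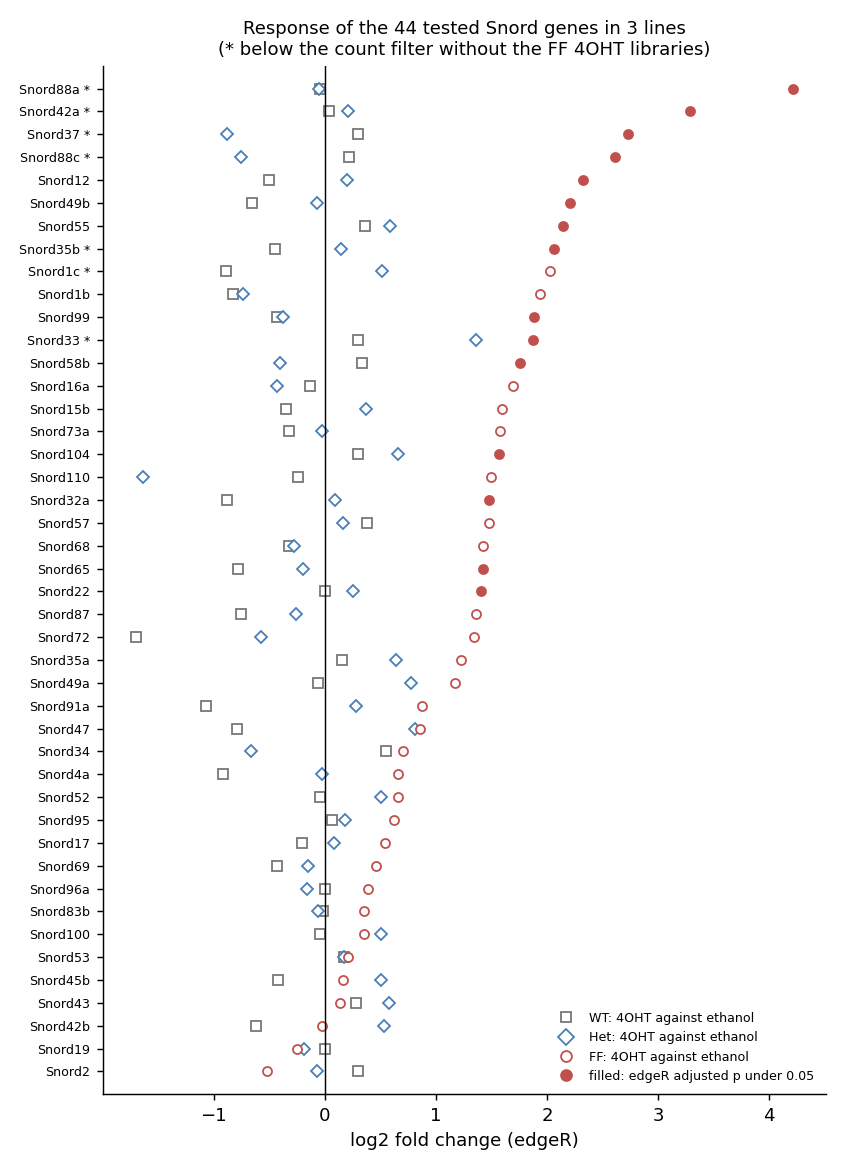
Log2 fold change, 4OHT against ethanol, of the 44 tested Snord genes (1 per line of the plot) in the WT (squares), Het (diamonds) and FF (circles) lines, with filled symbols at an edgeR adjusted p under 0.05. The FF values run from -0.52 to 4.21 and 41 are above 0, while no WT or Het symbol is filled.

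The 6 members that were called with any single FF library left out are Snord88c, Snord88a, Snord42a, Snord32a, Snord55 and Snord22. Of these, Snord88c, Snord88a and Snord42a passed the count filter only through the FF 4OHT libraries, so their separation from the other groups is a description. Snord88c had 0.122, 0.249 and 0.190 CPM in FF ethanol libraries A, B and C and 0.991, 1.59 and 0.915 CPM in FF 4OHT (log2 fold change 2.61 ± 0.48 SE, edgeR adjusted p = 0.00266). The 12 WT and Het libraries lay between 0.0964 and 0.414 CPM, so that the 3 FF 4OHT libraries stood apart from all others. Its near copy Snord88a had 0, 3 and 0 reads in FF ethanol and 28, 20 and 13 in FF 4OHT (edgeR adjusted p = 0.00599). Set against the 3 ethanol reads, the 61 reads in 4OHT give a depth-corrected ratio of 20.1 with a 95% counting interval of 6.55 to 100.02. The fitted log2 value of 4.21 ± 0.89 is imprecise for that reason, and reads shared between these near copies remain uncertain.

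Snord42a had 0, 0.107 and 0.114 CPM in FF ethanol and 0.793, 0.650 and 0.874 CPM in FF 4OHT (log2 3.29 ± 0.66 SE, edgeR adjusted p = 0.00427). WT and Het libraries held 0.0259 to 0.149 CPM of it, which is 1 to 4 reads each. The change therefore sets 20 or 21 reads in each FF 4OHT library against at most 4 in all others.

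Snord32a belongs to the Rpl13a snoRNAs, which are known for their part in the response to lipotoxic stress. It had 0.734, 0.533 and 0.721 CPM in FF ethanol and 2.34, 1.56 and 1.66 CPM in FF 4OHT (log2 1.48 ± 0.30 SE, edgeR adjusted p = 0.00485). No WT or Het library exceeded 1.00 CPM. Snord33, from the same host, went from 0.0815, 0.284 and 0.228 CPM to 0.634, 0.455 and 1.16 CPM (log2 1.88 ± 0.60 SE, edgeR adjusted p = 0.0486). Its lowest FF 4OHT library stood below the highest WT library, at 0.466 CPM, and the call was lost when any single FF library was left out.

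Snord55 had 1.02, 0.462 and 0.304 CPM in FF ethanol and 2.34, 2.01 and 3.54 CPM in FF 4OHT (log2 2.14 ± 0.46 SE, edgeR adjusted p = 0.00666). WT and Het libraries held at most 0.905 CPM. Snord22, the tested member with a role in cutting the ribosomal precursor, had 2.94, 4.30 and 3.49 CPM in FF ethanol and 9.55, 10.5 and 8.44 CPM in FF 4OHT (log2 1.41 ± 0.32 SE, edgeR adjusted p = 0.0095). It is the most deeply read of these 6, with 285 reads in FF ethanol and 767 in FF 4OHT. WT libraries held 3.11 to 5.98 CPM and Het libraries 3.04 to 4.68 CPM, apart from Het_4OHT A at 7.16 CPM. Snord14a, another member of the cutting group, had 49 reads over all libraries and was not tested: FF ethanol libraries held 0, 3 and 3 reads and FF 4OHT libraries 1, 1 and 2.

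**Figure D3:**
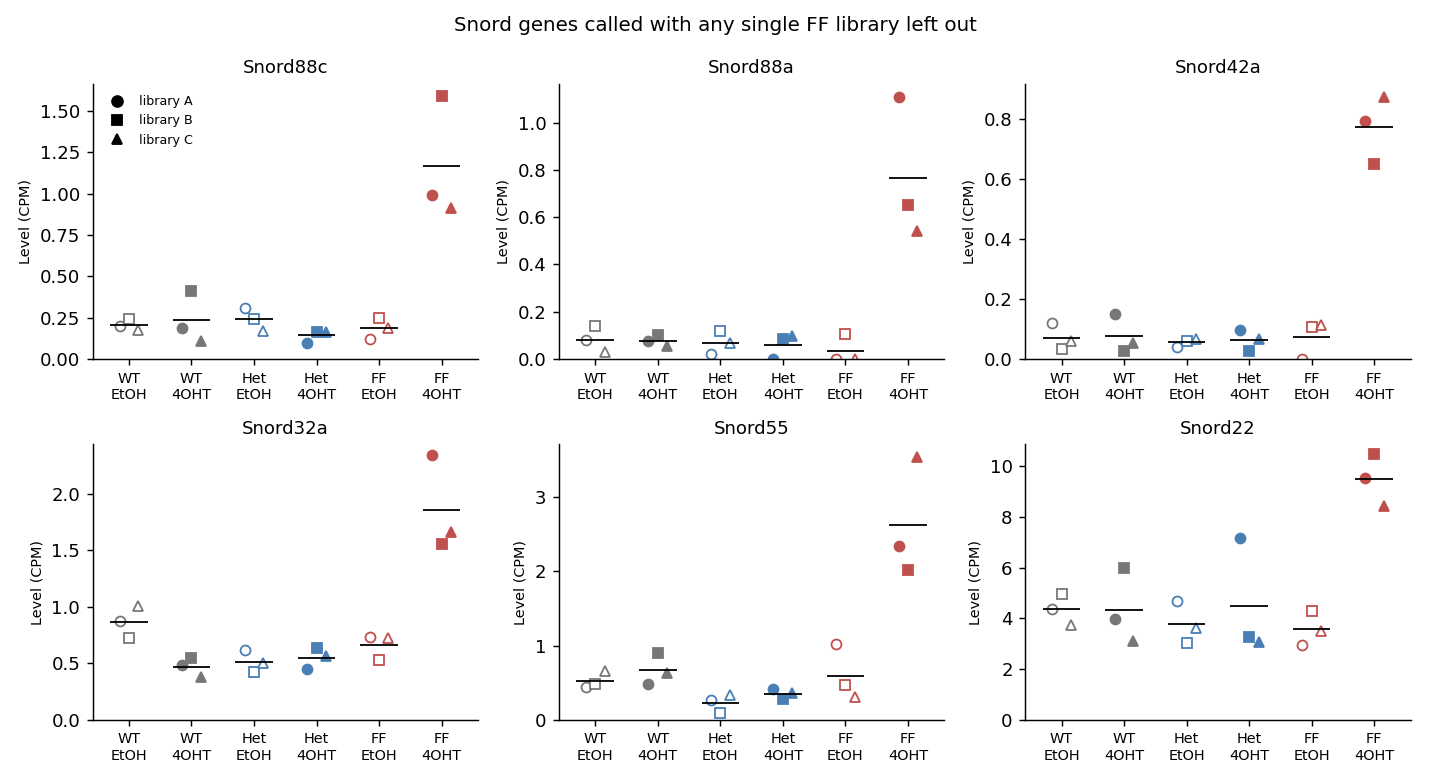
CPM in each library (points, shaped by letter) of the 6 Snord genes that were called with any single FF library left out, with group means as lines and a separate vertical scale from 0 in each panel. In all 6 panels the FF 4OHT libraries lie above the other 15, and for Snord22 the highest of these 15 is Het_4OHT A (7.16 CPM, against 8.44 CPM in the lowest FF 4OHT library). Snord88c, Snord88a and Snord42a passed the count filter only through the FF 4OHT libraries.

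Each of the other calls was lost in some fit that left out a single FF library. Those fits also called fewer genes over the whole table. Snord104, which has no annotated host, had 3.10, 4.12 and 4.06 CPM in FF ethanol and 9.35, 10.8 and 13.3 CPM in FF 4OHT (log2 1.57 ± 0.37 SE, edgeR adjusted p = 0.0121). The library Het_4OHT A reached 10.5 CPM, inside the FF 4OHT range, while Het_4OHT B and C held 4.33 and 4.01 CPM. Snord58b, in the ribosomal protein gene Rpl17, went from 0.245, 0.782 and 0.531 CPM to 1.62, 1.88 and 1.83 CPM (log2 1.76 ± 0.43 SE, edgeR adjusted p = 0.0139). Both calls were lost without FF_EtOH A or without FF_4OHT C.

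Snord37, in the translation elongation factor gene Eef2, went from 0.204, 0.107 and 0.0759 CPM in FF ethanol to 0.753, 0.974 and 0.874 CPM in FF 4OHT (log2 2.73 ± 0.72 SE, edgeR adjusted p = 0.0209). Snord35b went from 0.163, 0.213 and 0.228 CPM to 0.832, 0.909 and 0.832 CPM (log2 2.07 ± 0.56 SE, edgeR adjusted p = 0.0235). The highest WT or Het library held 0.299 CPM of Snord37 and 0.353 CPM of Snord35b. The call of Snord35b was lost without any single FF library, and that of Snord37 without FF_EtOH B or C or FF_4OHT B or C.

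Noncoding hosts hold the other called members. Snord12, in Zfas1, went from 0.326, 1.10 and 1.404 CPM to 4.16, 4.90 and 5.20 CPM (log2 2.32 ± 0.66 SE, edgeR adjusted p = 0.03). Snord99, in Snhg12, went from 0.122, 0.462 and 1.06 CPM to 1.82, 2.31 and 1.997 CPM (log2 1.88 ± 0.53 SE, edgeR adjusted p = 0.0291). Both were called in only 1 of the 6 fits that left out an FF library, the fit without FF_EtOH C, the highest of their ethanol libraries. Snord49b, in 2410006H16Rik, went from 1.14, 0.711 and 0.531 CPM to 3.49, 3.02 and 4.49 CPM (log2 2.20 ± 0.63 SE, edgeR adjusted p = 0.0312). Snord65, in the same host, went from 0.163, 0.640 and 0.266 CPM to 1.19, 0.942 and 0.790 CPM (log2 1.43 ± 0.46 SE, edgeR adjusted p = 0.049). Each of these was also called in only 1 such fit, without FF_EtOH A for Snord49b and without FF_EtOH B for Snord65. Without the pair of doubtful libraries the edgeR adjusted p was 0.0517 for Snord49b, 0.132 for Snord65 and 0.0913 for Snord33, and the other 12 stayed called.

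Among the members with the most reads, several did not pass. Snord96a, in the ribosome scaffold gene Rack1 (listed as Gnb2l1), had 2.98, 7.28 and 7.25 CPM in FF ethanol and 6.54, 8.64 and 7.74 CPM in FF 4OHT, and these ranges overlap (log2 0.39 ± 0.27 SE, edgeR adjusted p = 0.389). Its WT and Het libraries held 6.24 to 9.71 CPM, so that the low FF_EtOH A library stood out, not the 4OHT libraries. Snord16a, in the ribosomal protein gene Rpl4, had 2.12, 2.66 and 0.987 CPM against 7.01, 6.40 and 5.28 CPM in 4OHT without overlap, and missed the threshold (log2 1.69 ± 0.62 SE, edgeR adjusted p = 0.0857). It varied widely between libraries of a group elsewhere too, from 0.490 to 4.00 CPM in WT 4OHT. Snord49a was at log2 1.17 ± 0.44 SE (edgeR adjusted p = 0.089) and Snord52 at 0.65 ± 0.58 (0.505). Snord2, in the translation factor gene Eif4a2, had the lowest value of the 44, with 2.24, 2.59 and 1.18 CPM in ethanol against 2.06, 1.14 and 0.998 CPM in 4OHT (log2 -0.52 ± 0.73 SE, edgeR adjusted p = 0.694). A p above the threshold does not show that these levels were equal.

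Host transcripts were then set beside their snoRNAs, for the 43 tested members whose host is in the table (30 hosts). Of the hosts 8 of 30 rose in FF cells and 0 fell, and 7 of these 8 are noncoding. Over all tested genes 5.16% rose and 8.29% fell. The 8 noncoding hosts hold 11 tested members, 5 of them called, with a median log2 fold change of 1.43 for the members and 0.96 for the hosts. The 22 protein-coding hosts hold 32 tested members, 9 of them called, with a median of 1.28 for the members and 0.23 for the hosts. Only Rabggtb among the protein-coding hosts rose (log2 0.75). Among members that pass the count filter without the FF 4OHT libraries, 3 of 26 in coding hosts and 5 of 10 in noncoding hosts were called, with medians of 0.68 and 1.42. These splits are descriptions and the difference between them was not tested.

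In noncoding hosts, snoRNA and host rose together in 5 pairs. Snhg1, the host of Snord22, went from 60.6 to 86.0 CPM in FF ethanol to 230 to 268 CPM in FF 4OHT (log2 1.72, edgeR adjusted p = 0.000593), and Snord22 rose by 0.32 less than it on the log2 scale. Snhg12, the host of Snord99, was at log2 1.398 (edgeR adjusted p = 0.0015) and 1500012F01Rik, the host of Snord12, at 0.89 (0.0186). The host 2410006H16Rik of Snord49b and Snord65 was at 0.77 (edgeR adjusted p = 0.034), and at 0.78 (0.0726) without the pair of doubtful libraries.

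In protein-coding hosts, 9 called members had a host that was not called. The members ranged from log2 1.48 to 4.21, and their hosts named here from 0.09 (Eef2) to 0.37 (Rpl13a). These pairs were picked by the calls, and 6 of the 9 members passed the count filter only through the FF 4OHT libraries, so the gap is a description. Rpl23a, for example, stood at 927 to 1087 CPM in FF ethanol and 1114 to 1206 CPM in FF 4OHT (log2 0.23, edgeR adjusted p = 0.422), beside 3.29 for Snord42a. Among members that pass the count filter without the FF 4OHT libraries, the snoRNA's fold change exceeded its host's in 21 of 26 pairs with coding hosts and in 7 of 10 with noncoding hosts. The ratio of snoRNA reads to host reads, each with 0.5 added, was higher in all 3 FF 4OHT libraries than in all 3 FF ethanol libraries in 9 and 2 of these pairs. It was lower without overlap in 1, Snord45b with Rabggtb. Each pair shares its libraries and several share a host, so the pairs are not independent.

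**Figure D4:**
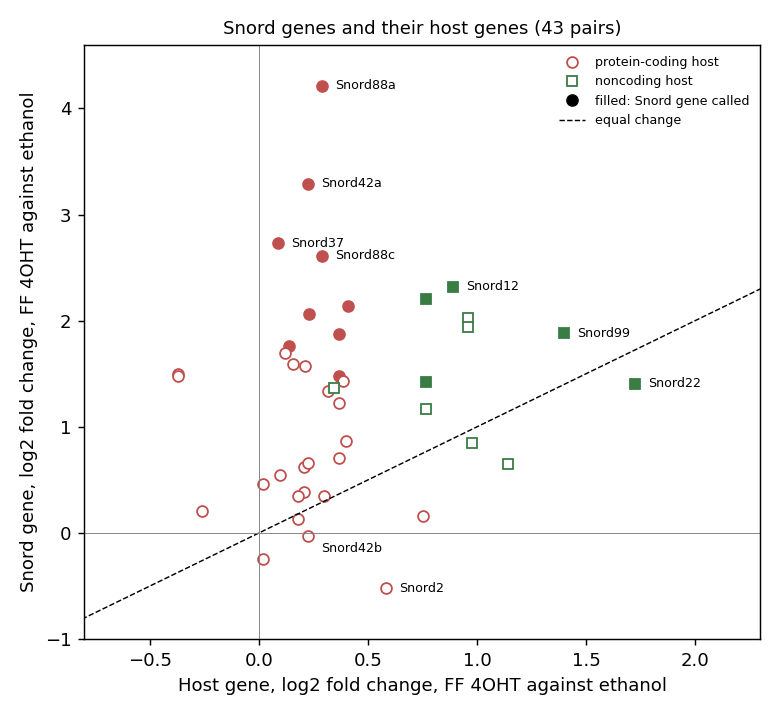
Log2 fold change of the snoRNA (vertical) against that of its host gene (horizontal), FF 4OHT against ethanol, for 43 pairs in protein-coding (circles) and noncoding (squares) hosts, with the dashed line at equal change. The 43 pairs include the 7 members that pass the count filter only through the FF 4OHT libraries, and called members in coding hosts run from 1.48 to 4.21 on the vertical axis.

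Values differed between members of a single host, although these come from the same transcript. In Rpl23a the log2 fold changes were 3.29 ± 0.66 for Snord42a, 0.66 ± 0.77 for Snord4a and -0.03 ± 0.65 for Snord42b (SE). Snord42a, like Snord33 below, passed the count filter only through the FF 4OHT libraries, so its gap to its neighbours is a description. Snord42b held 0.326, 0.355 and 0.493 CPM in FF ethanol and 0.277, 0.455 and 0.416 CPM in FF 4OHT, with overlapping ranges, and Snord4a ran from 0.228 to 0.775 CPM against 0.396 to 1.30 CPM. On the CPM scale, not divided by the near-equal lengths of 65 to 71 bases, Snord42a lay below both neighbours in every FF ethanol library and above Snord42b in every FF 4OHT library. Snord42a and Snord4a both lie outside annotated host exons, while Snord42b lies in a retained-intron form of Rpl23a. In Rpl13a all 4 tested members were above 0, at 1.48 for Snord32a, 1.88 for Snord33, 1.22 for Snord35a and 0.70 for Snord34, of which the first pair were called. In 2410006H16Rik, Snord49b was at 2.20, Snord65 at 1.43 and Snord49a at 1.17. Snord110 and Snord57 were at 1.497 and 1.479 without passing (edgeR adjusted p = 0.236 and 0.143), while Nop56, their host and itself a C/D snoRNP protein, was at -0.37 (0.0954). Differences between members of a host were not tested.

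**Figure D5:**
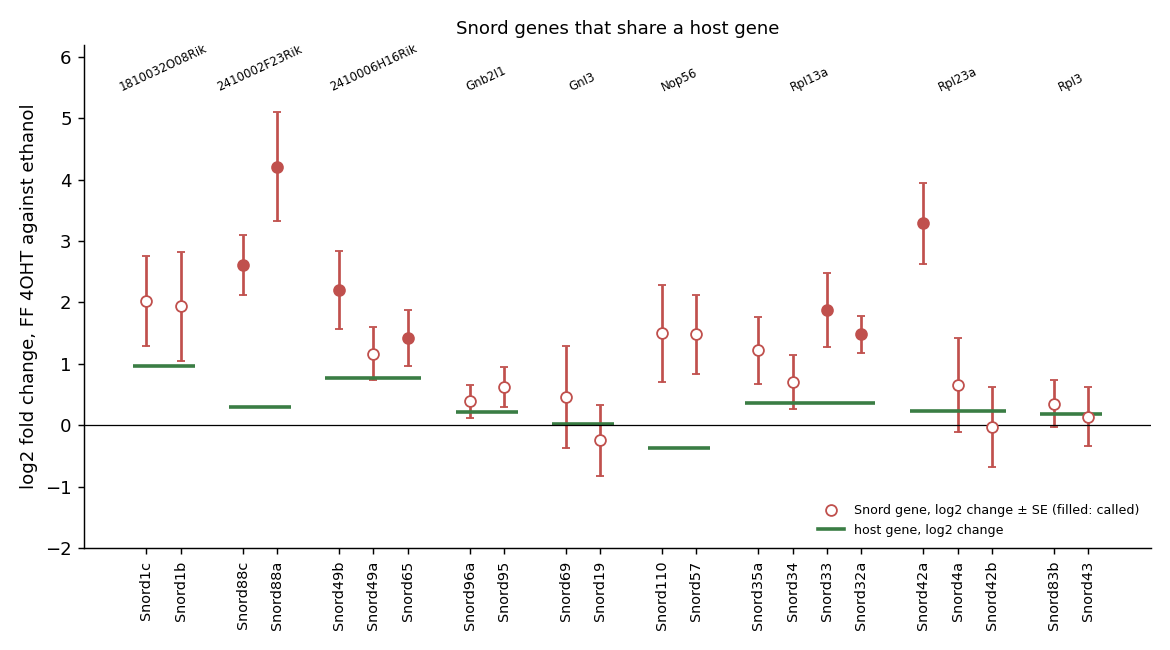
Log2 fold change ± SE, FF 4OHT against ethanol, of tested Snord genes (circles, filled where called) grouped by the 9 hosts that hold more than 1 of them, with the host's own value as a bar. Rpl23a members run from -0.03 for Snord42b to 3.29 for Snord42a, which passed the count filter only through the FF 4OHT libraries.

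Overlap with annotated host exons, mostly retained-intron forms, was counted because reads there could belong to the host's transcript. Of the 44 tested members 22 lie in such an exon on the same strand, and 6 of these 22 were called, against 9 of the 22 that do not. How the authors assigned reads that fit both features is not given in the sources used here.

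In Het cells no Snord gene was called with 4OHT by edgeR, DESeq2 or limma voom, and 0 of 44 had an unadjusted edgeR p under 0.05, against 1.91% of all genes. Calls were rare in that comparison over all genes (0.0156%), and the members' median log2 fold change was 0.09, from -1.64 to 1.36. In WT cells, again, no Snord gene was called by any of these tools, against 0% of all genes, with a median of -0.10 and 15 of 44 above 0. Without the pair of doubtful libraries the WT count stayed at 0, while the median was 0.11 with 26 of 46 above 0. Snord32a and Snord72 had an unadjusted p under 0.05 there, both lower, against 2.14% of all genes in either direction. Snord32a held 0.874, 0.724 and 1.00 CPM in WT ethanol and 0.486, 0.543 and 0.381 CPM in WT 4OHT, without overlap (log2 -0.88 ± 0.31 SE, edgeR adjusted p = 1).

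The responses were compared directly through the interaction of line and treatment. The FF response exceeded the WT response in 1 of 44 members, Snord32a, by 2.36 ± 0.43 on the log2 scale (SE, edgeR adjusted p = 0.0112), against 0.412% of all genes. That difference joins a rise of 1.48 in FF cells to the value of -0.88 in WT cells. Without the pair of doubtful libraries it was 2.29 (edgeR adjusted p = 0.0456), and with WT_EtOH C left out too the Snord32a call was lost. The FF response exceeded the Het response in 1 member, Snord88c, by 3.36 ± 0.71 (SE, edgeR adjusted p = 0.0203), against 0.404% of all genes. Snord88c passed the count filter only through the FF 4OHT libraries. Its call was lost in the fit to the compared groups alone and on leaving out FF_4OHT B, FF_4OHT C, Het_EtOH A or Het_EtOH B. With unadjusted p under 0.05, 17 members were higher in FF than in WT and 16 higher in FF than in Het, and 0 lower in either, against 15.3% and 16.3% of all genes in either direction. These counts describe the 44, of which 7 passed the count filter only through the FF 4OHT libraries, which favours a higher FF response. Both comparisons share the FF libraries. For the other called members the FF response is therefore not shown to differ from that of the other lines.

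Before induction no difference between lines was called at these genes. In ethanol 0 of 44 members were called between FF and WT lines (0% of all genes) and 0 between Het and WT lines (23.7% of all genes), by edgeR, DESeq2 and limma voom alike. At an unadjusted p under 0.05 no member differed between FF and WT, while Snord45b, Snord55 and Snord32a were lower in Het than in WT. Over all genes, 5.5% and 34.4% had such a p in these comparisons. The median log2 difference was -0.05 for FF and -0.31 for Het. FF against WT changed over all genes without the pair of doubtful libraries, with 614 of 13041 genes called, while 0 of 46 tested members were called and their median was 0.04. Het against WT gave 1 call in the fit to the compared groups alone and 2 without WT_EtOH C and the pair of doubtful libraries.

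Some libraries of the other groups stood low in several members together. WT_EtOH C lay below both A and B in 30 of 44 members and WT_4OHT C in 33 of 44. Snord87 had 0 reads in WT_EtOH C against 14 and 26, and 0 in WT_4OHT C against 19 and 7. Het_4OHT A had 0 reads of 5 members that had at least 5 in both B and C, and 1 read of Snord53 against 39 and 49. The same library was at the top of its group for Snord104 and Snord22, given above.

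The protein side of the C/D pathway was examined in lists of genes. Over all genes in FF cells, edgeR called 5.16% higher and 8.29% lower, and 28.1% had an unadjusted edgeR p under 0.05. Few calls are therefore likely in lists this small, and their absence does not show that the genes were unchanged. Of the 5 core proteins of the C/D snoRNP 0 were called in FF cells by edgeR, DESeq2 or limma voom, and 2 were lower at an unadjusted p under 0.05. Fibrillarin (Fbl), the methyltransferase, stood at 213 ± 49.0 CPM in ethanol and 188 ± 7.70 CPM in 4OHT (SD, n = 3, log2 -0.18), and Nop58 at 300 ± 27.1 and 276 ± 35.2 CPM (log2 -0.12). All 5 values were below 0, with a median of -0.18. Among 12 assembly factors 0 were called by these tools (0 higher and 1 lower unadjusted, median -0.02), and Hsp90ab1, the chaperone that acts in assembly, was at -0.06. Among 11 genes of snoRNA release and decay 0 were called (1 higher and 1 lower unadjusted, median -0.15). Dbr1, which opens intron lariats, was at -0.21 and Exosc10, a nuclear exosome nuclease, at 0.23 (edgeR adjusted p = 0.439 and 0.174).

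Other short noncoding RNAs, of which 4 of 13 in the table were tested, were not called either (1 higher unadjusted, and 0 by DESeq2 and limma voom). Rmrp, the RNA of a ribosomal precursor nuclease, was at log2 2.12 ± 1.21 SE (edgeR adjusted p = 0.274). Terc, the telomerase RNA, was at 1.58 ± 0.64 (0.114), Rpph1, the RNA of RNase P, at 1.22 ± 0.88 (0.401), and Rnu73b at -0.14 ± 0.62. These values have larger errors than those of most called snoRNAs and allow neither a rise like theirs nor its absence to be stated.

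The 13 members without a read include the 4 imprinted orphan snoRNAs in the table (Snord116, Snord116l1, Snord116l2 and Snord64), which are known from brain, and Snord118, a snoRNA needed to cut the large-subunit ribosomal precursor. Over all 18 libraries, 559336505 reads, a count of 0 allows a level of up to 0.00536 CPM for each (3 reads, counting error only). Other members at 0 lie in hosts with reads: Snord14c and Snord14d in Hspa8 (mean 3147 CPM), Snord61 in Rbmx (89.4 CPM), Snord45c in Rabggtb (69.5 CPM) and Snord90 in Rc3h2 (37.2 CPM). Snord14c and Snord14d are identical at 84 of 86 positions, and the sequence of Snord116l1 and Snord116l2 has 30 identical annotated copies. Reads that fit several places may have been left out of the table, so 0 reads is no measure of absence for such members.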

How the data were processed

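RNA-seq was done on total RNA, and the authors deposited whole-number read counts per gene symbol for all 18 libraries, not normalized. The submitters' processing notes name HISAT2 2.0.5, featureCounts 1.5.2 (Subread), FastQC 0.11.7, CASAVA 1.4 and the mm10 build. Not given in the sources used here are the library kit, size selection, strand setting, annotation and handling of multiple matches, and snoRNAs are shorter than many protocols retain.

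Counts were fitted in 1 model over all 18 libraries and 6 groups with edgeR 4.0.16 (R 4.3.3; TMM, filterByExpr with minimum count 10, robust quasi-likelihood F test), with Benjamini-Hochberg adjustment over 12859 genes and a threshold of 0.05. CPM is scaled by TMM. Hosts are GENCODE M21 genes whose span holds the snoRNA on the same strand. Alternatives were other scalings, filters, DESeq2 1.42.0, limma 3.58.1 voom, the compared groups alone, a replicate block and libraries left out.

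Values are given in full for up to 15 called members with the smallest adjusted p and for processing snoRNAs, and fold changes for 5 uncalled members with the most reads and for hosts. Some hosts and sequences are not reported here, while counts include them. Members and lists were chosen with earlier results of these data known.

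Deviations of libraries with the same letter correlated at 0.476, 0.697 and 0.402 in Het cells (A, B and C). The values were 0.389, -0.023 and 0.25 in WT cells and 0.167, 0.182 and 0.067 in FF cells. Whether the letters pair libraries in any line cannot be settled from these values, which have no reference to be judged against.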

Additional observations from a re-analysis of the deposited data

Results flagged for a closer look

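The interaction test set Snord32a apart between lines: its response to 4OHT was 2.36 ± 0.43 (log2, SE) higher in FF than in WT cells (edgeR adjusted p = 0.0112), with 1.48 in FF and -0.88 in WT. Snord88c responded 3.36 ± 0.71 more in FF than in Het cells (edgeR adjusted p = 0.0203), with 2.61 in FF and -0.75 in Het. It passed the count filter only through the FF 4OHT libraries, which favours a higher FF response. Its call was lost in the fit to the compared groups alone and on leaving out FF_4OHT B, FF_4OHT C, Het_EtOH A or Het_EtOH B. Het libraries held 3 to 16 reads of Snord88c each. Without FF_EtOH C and WT_4OHT C the differences were 2.29 for Snord32a and 3.37 for Snord88c.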

How the results depend on the processing

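The 15 rises in FF cells kept their direction under every alternative that tested them. The count of called members ran from 13 to 17 under other scalings, no filter, DESeq2, limma voom and the compared groups alone, was 12 to 15 without the libraries named in the report, and ran from 6 to 10 when single libraries were left out. With a replicate block it was 16, and with a block within each line, chosen after seeing the data, 19. The block changed no Het call, which stayed at 0. Fits of the FF response with a single FF library left out also called fewer genes over the whole table. They called 698 to 1293 in either direction, against 1729 in the main fit.

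The FF minus WT count of 1 became 4 with DESeq2, 6 with the block within each line and 3 without FF_EtOH C, WT_4OHT C and Het_4OHT A, and single libraries left out gave 1 to 3. Without FF_EtOH C, WT_4OHT C and WT_EtOH C it was still 1, but of another gene, and Snord32a lost its call. The FF minus Het count of 1 became 3 with DESeq2, 0 in the compared groups alone, 4 with the block within each line, 2 without FF_EtOH C and WT_4OHT C, 2 without WT_EtOH C as well and 3 without Het_4OHT A as well. Single libraries left out gave 0 to 2. Het against WT in ethanol gave 0, and 1 in the compared groups alone, 2 without WT_EtOH C and 1 without Het_4OHT A, each with the other 2 libraries left out too. The causes were not tested. Depth is also a limit: with 0.0194 to 0.0416 CPM to the read, members under 1 CPM rest on few reads.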
